A study of Arabidopsis thaliana with 48 samples.

Results

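APETALA3 (AP3, AT3G54340) and PISTILLATA (PI, AT5G20240) are the B-class floral organ identity genes of Arabidopsis thaliana. They were taken by gene identifier, matched without regard to case, and are 2 of the 23069 genes in the deposited count table. The rule that picks them uses no measured value, but earlier results of these data were known when they were chosen. The samples were inflorescences of a Col-0 line that is mutant for both AP1 and CAL and carries AP1 fused to the hormone-binding domain of the glucocorticoid receptor (GR) under the AP1 promoter. Without hormone such plants pile up inflorescence-like meristems, and dexamethasone (DEX), a synthetic glucocorticoid, lets the fusion protein enter the nucleus and start flowers together. RNA was sampled at 0, 1, 2, 3, 4 and 5 days after induction with 4 biological replicates per day (n = 4), which makes 24 samples. The 2 sequencing runs of each were summed. Every group carries the same mutations and the same construct, inductions were repeated daily, and no time course without DEX was analysed here. The labels do not state how many plants made up a replicate, so p-values measure the spread between these samples.

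In the floral organ identity model, B-class genes act with A-class and E-class genes to specify petals and with C-class and E-class genes to specify stamens. AP3 and PI are MADS-domain transcription factors that bind DNA as a heterodimer, at sequences called CArG boxes, and each needs the other to enter the nucleus. The pair is switched on in young flower primordia by the meristem identity factor LEAFY (LFY) with its F-box cofactor UFO, and by AP1, and it then maintains its own transcription. PI is known to be transcribed early in a wider domain than AP3.

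AP3 lies on chromosome 3 at 20119140 to 20121314 of TAIR10.1, on the minus strand, with 1 annotated transcript of 7 exons and 1214 bases that encodes 232 residues. PI lies on chromosome 5 at 6828904 to 6831515, on the plus strand. Its longest transcript has 6 exons and 1233 bases and encodes 208 residues, and a second transcript of 5 exons and 1222 bases encodes 150 residues. The counts are per gene and do not separate the PI transcripts. Neither gene overlaps another annotated gene.

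The sites below are shown because CArG boxes are the sequences that the AP3 and PI proteins and their MADS partners are known to bind, and CCANTG is the core of the sequence that LFY is known to bind. They were looked for on both strands in the 250 bases before the start codon, and all of those found lie in the annotated 5′ leader. Neither window holds an exact CArG box, which 2.24% of 21836 such windows do. The AP3 window holds 3 sites that differ from the CArG box at 1 base, as 1.15% of windows hold at least 3. The PI window holds 1 such site, as 31.37% of windows hold at least 1. The PI window also holds 1 CCANTG, present in 20.73% of windows, and the AP3 window holds no CCANTG. Each is printed 5′ to 3′ on the strand of the gene, with the whole site in capitals and 8 bases on each side. In the CArG-like sites the capitals include the base that differs. The CCANTG site does not overlap the CArG-like site of PI. A match describes these letters only, and binding was not measured.
AP3 CArG-like site 1, chr3:20121283-20121308, minus strand: atcagtttACATAAATGGaaaattta
AP3 CArG-like site 2, chr3:20121235-20121260, minus strand: tgaacttaCCTTTCATGGattaggca
AP3 CArG-like site 3, chr3:20121210-20121235, minus strand: aatactttCCATTTTTAGtaactcaa
PI CArG-like site, chr5:6829163-6829188, plus strand: tagcaaacCCTAAAATTGagaaagag
PI CCANTG site, chr5:6829089-6829110, plus strand: ctttaaaaCCAATGctcctctt
The capitals of the 3 AP3 sites start 213, 165 and 140 bases before the start codon. Those of the PI sites start 32 bases before it for the CArG-like site and 106 bases before it for CCANTG.

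The 24 samples held 26.56 to 27.98 M counts each (M is 1e6). Meristem genes were present in every sample. Summed over TFL1, WUS, CLV3, STM and KNAT1 they gave 323 to 329 CPM (counts scaled to an effective library of 1e6) at day 0 and 123 to 191 CPM at day 5. Most of that sum came from STM and KNAT1, with means of 159 and 131 CPM at day 0 and 69.3 and 88.8 CPM at day 5. WUS and CLV3 were low, with means of 1.80 and 0.142 CPM at day 5. Among the other cells a sample could hold, the pollen gene PPME1 did not exceed 0.115 CPM in any sample. The summed level of 10 tapetum genes, which mark the inner anther wall, was 18.5 to 24.6 CPM at day 0, when 3 of them (DYT1, MS1 and CYP703A2) were at 0. The sporopollenin enzyme LAP6 alone gave 19.8 ± 3.10 CPM (SD, n = 4) of that sum at day 0 and stayed between day means of 19.8 and 25.1 CPM. The tapetum sum exceeded 50 CPM in 4 samples: 50.9 in day 1 replicate 3, 53.9 in day 2 replicate 4, 93.1 in day 3 replicate 4 and 55.7 in day 5 replicate 4. Results for AP3 and PI that change without these 4 samples are given where they occur. In whole inflorescences more cells that express a gene and more RNA per cell cannot be told apart.

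AP3 was low before induction and rose steeply within the first day and again by day 2. At day 0 its level was 6.02, 10.97, 7.41 and 10.5 CPM in replicates 1 to 4, from 161 to 286 counts per sample. At day 1 it was 62.8, 65.2, 71.5 and 74.0 CPM. The lowest day 1 sample stood well above the highest day 0 sample. At day 2 the replicates gave 138, 134, 131 and 129 CPM, and at day 3 they gave 168, 186, 142 and 193 CPM. The day 3 samples spread more widely than those of day 2, and the groups did not overlap. At day 4 the values were 168, 186, 168 and 165 CPM, and at day 5 they were 179, 178, 188 and 173 CPM. These last 2 days overlapped each other and lay inside the range of day 3. The day means ± SD were 8.74 ± 2.41, 68.4 ± 5.23, 133 ± 3.58, 172 ± 22.4, 172 ± 9.39 and 179 ± 6.09 CPM for days 0 to 5 (n = 4 each).

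PI was already well expressed before induction and rose less. Its level at day 0 was 52.4, 65.8, 58.9 and 67.0 CPM in replicates 1 to 4. At day 1 it was 84.7, 91.6, 97.9 and 104 CPM, and at day 2 it was 129.8, 131, 119 and 138 CPM. Neither step showed overlap between neighbouring days. At day 3 the replicates gave 131, 152, 106 and 165 CPM, at day 4 they gave 131, 145, 122 and 126 CPM, and at day 5 they gave 160.3, 139, 146 and 164 CPM. The day 3 samples spanned all of the day 2 and day 4 values. The day means ± SD were 61.0 ± 6.77, 94.6 ± 8.44, 129 ± 7.85, 138 ± 25.8, 131 ± 10.001 and 152 ± 11.6 CPM. In both genes day 3 replicate 3 was the lowest and day 3 replicate 4 the highest sample of that day, with tapetum sums of 23.0 and 93.1 CPM. The part of the tapetum level in that spread was not tested.

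**Figure D1:**
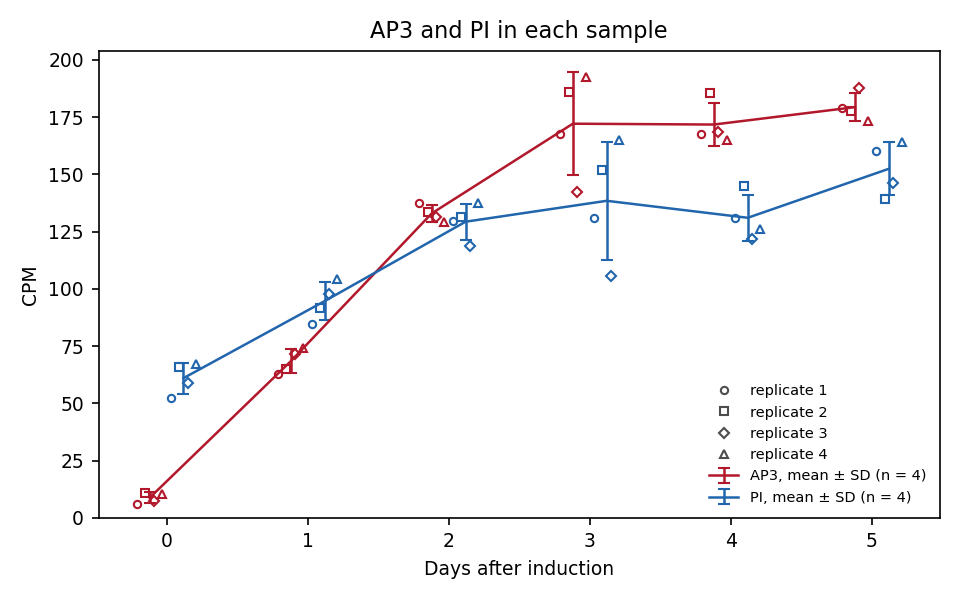
Level of AP3 and PI in every sample. The vertical axis is CPM and the horizontal axis is days after induction, with a point for each of 4 replicates per day and a mark with error bars for the mean ± SD. AP3 starts at 6.02 to 10.97 CPM, below every PI value of day 0, and ends at 173 to 188 CPM, above every PI value of day 5.

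Both genes rose from day 0 to day 1. In edgeR's quasi-likelihood test with Benjamini-Hochberg adjustment, AP3 rose by a log2 fold change of 2.97 (SE 0.13, 7.82-fold, adjusted p = 1.53e-12) and PI by 0.63 (SE 0.11, 1.55-fold, adjusted p = 0.000719). At adjusted p below 0.05, 4.21% of the 19747 tested genes were called higher and 5.85% lower in that comparison. Ranked by p, AP3 was 1st and PI 160th of all tested genes. By day 5, AP3 stood 4.36 above day 0 on the log2 scale (SE 0.14, 20.5-fold, adjusted p = 9.16e-16) and PI 1.32 above it (SE 0.11, 2.50-fold, adjusted p = 1.69e-09), where 24.3% of tested genes were called higher and 22.9% lower.

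Against day 0, both genes were also higher on the days between. The AP3 log2 changes were 3.93, 4.30 and 4.30 at days 2, 3 and 4 and those of PI were 1.08, 1.18 and 1.10. The share of tested genes called higher was 11.3%, 14.6% and 17.8% in these comparisons, and the share called lower was 12.4%, 14.5% and 17.6%. AP3 had the smallest p of all 19747 genes in each of the 5 comparisons with day 0, which share the day 0 samples. Its rise was not the largest. Ranked by log2 change, AP3 was 96th, 101st, 113th, 105th and 210th at days 1 to 5. PI was 894th at day 1 and 1480th at day 5. Over the 6 days together, where 48.9% of tested genes changed, AP3 ranked 5th by p (adjusted p = 4.58e-15) and PI 525th (adjusted p = 1.38e-08).

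No daily step after day 2 passed the test in either gene. From day 1 to day 2, AP3 rose by 0.96 (SE 0.12, adjusted p = 4.85e-05), 11th of all tested genes by p, and PI by 0.45 (SE 0.11, adjusted p = 0.0269), where 1.49% of tested genes were called higher (1.9% in either direction). The PI call in that step ended without any 1 of 5 libraries (day 1 replicates 1 and 2, day 2 replicates 1, 2 and 4), and without the 4 samples with high tapetum sums it stood at 0.44 (adjusted p = 0.0910).

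From day 2 to day 3, AP3 was 0.37 higher on the log2 scale (SE 0.11, 95% interval 0.14 to 0.61) with adjusted p = 0.155, which missed the threshold although the samples did not overlap. PI differed by 0.10 (interval -0.12 to 0.32). Neither gene was called from day 3 to day 4 or from day 4 to day 5. Tested genes called in either direction made up 0.871%, 1.45% and 12.2% of all in these 3 steps. The AP3 differences were -0.0030 (interval -0.24 to 0.23) and 0.06 (interval -0.17 to 0.30), and the PI differences were -0.08 (interval -0.30 to 0.14) and 0.22 (interval -0.0006 to 0.44).

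Across wider gaps both genes stood above day 1 on days 3, 4 and 5. AP3 was higher by 1.33, 1.33 and 1.39 and PI by 0.55, 0.47 and 0.69, where 6.02%, 11.4% and 21.9% of tested genes were called higher. The PI difference between days 4 and 1 had adjusted p = 0.00253, and 0.0554 without replicate 2 of every day. Against day 2, AP3 was higher at day 5 by 0.43 (SE 0.11, adjusted p = 0.00552), among the 18.4% of genes called higher there. At day 4 it was 0.37 higher (adjusted p = 0.0448, with 5.74% called higher), a call that ended without any 1 of the 8 libraries compared, at 0.33 to 0.39 with adjusted p of 0.0659 to 0.137, and without the 4 samples with high tapetum sums (0.36, adjusted p = 0.115). PI was not called between day 2 and any later day. At day 5 it stood 0.24 above day 2 (SE 0.11, adjusted p = 0.0908) without overlap between the samples. In both genes the day means stood in the order 0, 1, 2, 4, 3, 5. Days 0, 1 and 2 differed from each other in both. Of the later neighbours in that order only days 2 and 4 of AP3 passed the test, as given above, and days 3 and 5, between which 19.1% of tested genes were called, differed by 0.06 in AP3 (interval -0.18 to 0.29) and 0.14 in PI (interval -0.08 to 0.36).

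The genes changed by different amounts, so their ratio moved. AP3 counts per kb of transcript were divided by PI counts per kb within each sample, which needs no scaling between samples. At day 0 the ratio was 0.117, 0.170, 0.128 and 0.160 in replicates 1 to 4, and at day 1 it was 0.753, 0.723, 0.742 and 0.720. PI exceeded AP3 in all 8 of these samples. At day 2 the ratio was 1.08, 1.03, 1.12 and 0.954, so AP3 exceeded PI in 3 of 4 samples. At day 3 it was 1.30, 1.24, 1.37 and 1.19, at day 4 it was 1.30, 1.30, 1.40 and 1.33, and at day 5 it was 1.13, 1.30, 1.30 and 1.07. AP3 exceeded PI in every one of these 12 samples.

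The mean ratio ± SD was 0.144 ± 0.0251, 0.734 ± 0.0159, 1.05 ± 0.0726, 1.27 ± 0.0772, 1.33 ± 0.0487 and 1.201 ± 0.116 for days 0 to 5. Of the 15 pairs of days, 11 differed in an exact two-sided permutation test of the log2 ratio (p = 0.0286 each, the smallest that 4 samples against 4 allow, adjusted over the 15 pairs to 0.0390). From day 0 to day 1 the log2 ratio rose by 2.37 (SE 0.13), from day 1 to day 2 by 0.51 (SE 0.05) and from day 2 to day 3 by 0.28 (SE 0.07), each with non-overlapping samples. The other 4 pairs were days 3 and 4 (0.07, SE 0.05, adjusted p = 0.245), days 3 and 5 (-0.09, SE 0.08, adjusted p = 0.343), days 4 and 5 (-0.15, SE 0.08, adjusted p = 0.0989) and days 2 and 5 (0.20, SE 0.09, adjusted p = 0.0989), all by the exact permutation test.

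**Figure D2:**
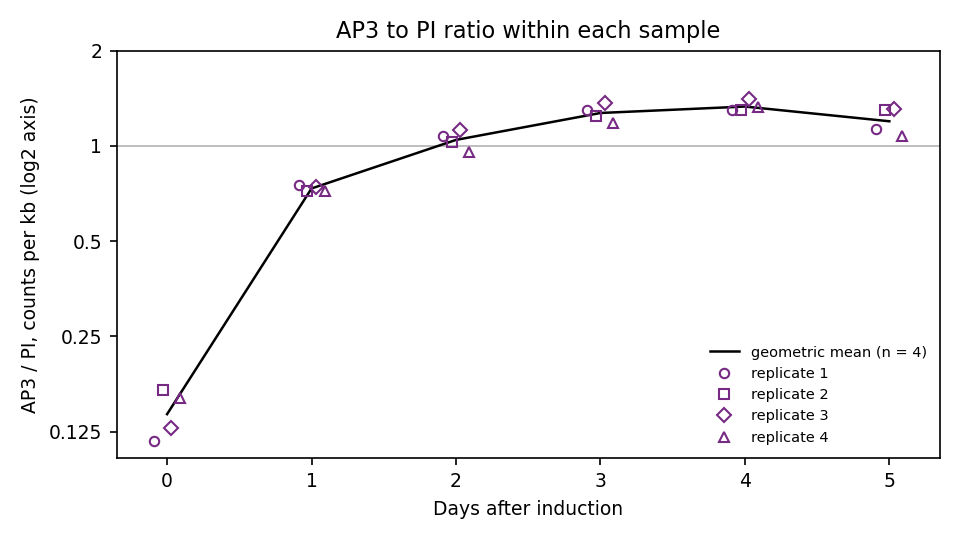
Ratio of AP3 to PI per kb of transcript in every sample by day after induction, on a log2 axis. Points are the 4 replicates of each day and the line joins their geometric means. The ratio runs from 0.117 to 0.170 at day 0 to 1.30 to 1.40 at day 4, and crosses 1 at day 2.

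On the scale of CPM per kb, the mean AP3 level was 7.20 at day 0 and 148 at day 5, and that of PI was 49.5 and 124. AP3 gained 141 ± 2.70 CPM per kb (SE) over that span and PI 74.2 ± 5.45. As a description of timing, AP3 had made 34.9 ± 1.72% and PI 36.8 ± 5.67% (SE) of the day 5 gain at day 1, and 72.8 ± 1.68% and 74.7 ± 6.47% at day 2. At day 3 the shares were 95.8 ± 6.79% for AP3 and 84.7 ± 15.1% for PI, and at day 4 they were 95.5 ± 3.24% for AP3 and 76.6 ± 7.37% for PI. At days 1, 2 and 3 the shares of the genes lay within the SE of the PI share.

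The genes whose log2 CPM followed AP3 most closely over the 24 samples, among 6753 genes with a symbol and a mean of at least 5 CPM, were AG (Pearson r 0.986), the C-class gene, JAG (0.984), a zinc finger gene of organ growth, ATH1 (0.98), a BELL homeobox gene, FOP1 (0.98) and TRY (0.972), a trichome patterning gene. For PI they were AG (0.980), ENDO3 (0.963), FOP1 (0.958), NIT3 (0.958), a nitrilase gene with near copies that can share reads, and AP3 (0.953). PI was 10th for AP3. Over the 20 samples of days 1 to 5 the correlation of AP3 with PI was 0.886, and it was 0.740 over the deviations of the 24 samples from their day means. These correlations describe samples that share a time course and have no p.

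Among 8 activators of B-class genes and their cofactors, 3 rose at day 1 and 5 were not called, where 4.21% of all tested genes were called higher and 5.85% lower. The 3 were LFY, AP1 and the E-class gene SEP3, and the median log2 change of the list was 0.03 against -0.0018 for all tested genes. LFY, which binds AP3, stood at 44.4 to 51.7 CPM at day 0 and 87.1 to 106 CPM at day 1, up 1.02 on the log2 scale (SE 0.10, adjusted p = 4.92e-07). It was highest at day 2 (114 ± 6.79 CPM, SD) and still 0.35 above day 0 at day 5 (adjusted p = 0.00414; 0.21 and 0.0740 without replicate 3 of every day), when its level was 62.0 ± 9.72 CPM. UFO, the LFY cofactor, was at 29.9 ± 5.38 CPM at day 0 and 31.0 ± 2.94 CPM at day 1, and had fallen by 0.70 at day 5 (SE 0.14, adjusted p = 0.000246). The mean levels of AP3 and PI were highest at day 5, although neither gene was called between days 3 and 5. Those of LFY and UFO were highest at day 2. A link between these courses was not tested.

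By day 5, 3 of the 8 stood higher and 4 lower than at day 0, where 24.3% and 22.9% of all tested genes were called higher and lower. AP1 was 0.69 higher (SE 0.08, adjusted p = 1.80e-07). Reads of the mutant AP1 gene and of the AP1-GR construct cannot be told apart in these counts, and the same holds for CAL as a mutated gene whose transcripts are still counted. CAL, the AP1 paralog, fell by 1.60 (SE 0.12, adjusted p = 2.26e-10). CUL1, the cullin of the ubiquitin ligase that UFO joins, fell by 0.17 (adjusted p = 0.00495), a call that ended when only these days were fitted (adjusted p = 0.0822). The SKP1-like ASK1 fell by 0.15 (adjusted p = 0.0283), a call that ended without any 1 of 3 libraries (day 0 replicate 2, day 5 replicates 1 and 2). ASK2 was at 109 ± 8.68 CPM at day 0 and 102 ± 3.06 CPM at day 5 and was not called.

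All 6 MADS partners of AP3 and PI in floral complexes rose at day 1, when 4.21% of all tested genes were called higher, with a median log2 change of 0.74 against -0.0018 for all tested genes. AG, which acts with B-class genes in stamens, was at 2.47, 4.01, 2.43 and 3.91 CPM at day 0 and 9.48, 9.56, 12.4 and 15.3 CPM at day 1, up 1.87 (SE 0.18, adjusted p = 5.76e-07). At day 5 it was 3.38 above day 0 (SE 0.18, adjusted p = 1.70e-12). SEP2 and SEP3, E-class genes that bridge floral MADS complexes, each rose by 0.90 at day 1, and at day 5 by 2.60 and 2.99 (SE 0.10 and 0.13). SEP1 rose by 0.57 at day 1 and by 1.66 at day 5.

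SEP4, a further E-class gene, was 0.39 higher at day 1 (adjusted p = 0.0244, a call that ended without any 1 of day 0 replicates 2 and 3 and day 1 replicates 1 and 2) and 0.17 at day 5 (adjusted p = 0.200), which left 5 of 6 partners called higher at days 4 and 5, against 17.8% and 24.3% of all tested genes. SEP2 rose at each step to day 4, but its calls from day 2 to day 3 and from day 3 to day 4 ended without any 1 of 5 and of 6 of the 8 libraries compared. SEP3 rose by 0.41 from day 4 to day 5 (adjusted p = 0.0235), which ended without any 1 of day 4 replicates 1, 2 and 3. AG was not called at any step after day 2.

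Per kb of transcript, mean levels at day 0 were 118 CPM per kb for AP1, 49.5 for PI, 24.9 for SEP4, 23.4 for SEP2, 13.3 for SEP1, 11.4 for SEP3, 7.20 for AP3 and 1.65 for AG. At day 5 the levels were 190 CPM per kb for AP1, 148 for AP3, 142 for SEP2, 124 for PI, 90.3 for SEP3, 41.8 for SEP1, 28.1 for SEP4 and 17.2 for AG. AP3 moved from the second lowest to the second highest mean of these 8 genes. The order between genes was not tested.

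**Figure D3:**
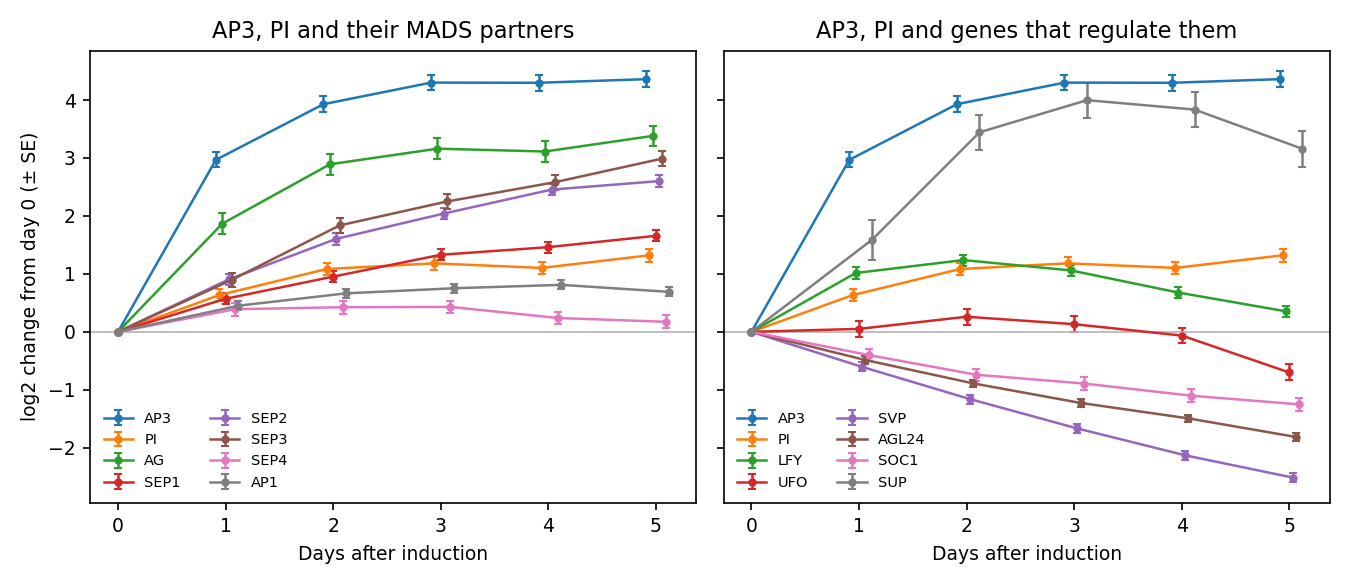
Log2 change from day 0 (± SE) by day after induction for AP3 and PI beside their MADS partners (left) and beside genes that regulate them (right), fitted over 4 samples per day. LFY is highest at day 2 with 1.24, SEP3 reaches 2.99 at day 5, and SVP falls to -2.51.

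Of 6 genes known to hold back B-class genes, 3 fell and 2 were not called in each comparison with day 0, and SUP is described below. Over these comparisons 5.85% to 22.9% of all tested genes were called lower and 4.21% to 24.3% higher. SVP, AGL24 and SOC1, MADS factors that restrain organ identity genes in young floral meristems, were the ones that fell. SVP was 101 ± 7.51 CPM at day 0, 66.7 ± 2.55 CPM at day 1 and 17.8 ± 1.79 CPM at day 5, a fall of 0.60 at day 1 (SE 0.08, adjusted p = 3.20e-05) and 2.51 at day 5 on the log2 scale. AGL24 fell by 0.49 at day 1 (SE 0.06, adjusted p = 4.96e-05) and by 1.81 at day 5. SOC1 fell by 0.40 at day 1 (adjusted p = 0.0189) and by 1.25 at day 5. The day 1 call of SOC1 ended without day 0 replicate 1, without day 0 replicate 4 and without the 4 samples with high tapetum sums.

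Both SVP and AGL24 also fell from day to day. SVP fell at each of the 4 later steps, by 0.55, 0.51, 0.46 and 0.38 (adjusted p from 0.000225 to 0.00414), although the steps from day 2 to day 3 and from day 3 to day 4 missed the threshold when only those days were fitted (adjusted p = 0.0604 and 0.0615). Leaving out a replicate of every day brought the last 3 SVP steps to adjusted p of up to 0.072, 0.068 and 0.078. AGL24 fell at the same steps, but its call from day 3 to day 4 (-0.27, adjusted p = 0.0396) ended without any 1 of 6 libraries. Its call from day 2 to day 3 (-0.34, adjusted p = 0.0121) ended without day 3 replicate 4 and without the samples with high tapetum sums. It also ended in batch 1 alone and when only those days were fitted. The corepressor LUG was at 229 ± 21.5 CPM at day 0 and 234 ± 11.6 CPM at day 5, and its adaptor SEU at 114 ± 10.5 and 113 ± 1.34 CPM, and neither was called in any of the 9 comparisons with day 0 or between neighbouring days. SUP, which bounds B-class expression towards the carpels and is also activated by AP3 and PI, went the other way from the MADS repressors. It was 0.181 ± 0.0731 CPM at day 0, 0.552 ± 0.153 CPM at day 1 and 2.96 ± 0.981 CPM at day 3, up 1.59 at day 1 (SE 0.34) and 4.00 at day 3 (SE 0.30). SUP held 19 counts in all at day 0 and passed edgeR's filter on low counts only through later days, so its changes from day 0 are a description.

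The Polycomb system keeps floral identity genes silent through a histone mark. None of its 6 genes was called against day 0 at days 1, 2 and 3 by edgeR, with 1, 2 and 1 at unadjusted p below 0.05, and DESeq2 called none there either. Of all tested genes, 4.21%, 11.3% and 14.6% were called higher and 5.85%, 12.4% and 14.5% lower on these days. The histone methyltransferase gene CLF was at 60.1 ± 5.56 CPM at day 0 and 65.0 ± 4.33 CPM at day 1. By edgeR, FIE was 0.16 lower at day 4 (adjusted p = 0.0384), where 17.6% of tested genes were called lower. LHP1, which binds the mark, was 0.15 lower at day 5 (adjusted p = 0.0413), where 22.9% were called lower. It was also 0.19 lower at day 5 than at day 4 (adjusted p = 0.0341, with 12.2% called in either direction). Each of these calls ended without any 1 of 6 libraries. Over the 6 days together, LHP1 (adjusted p = 0.00383) and SWN (adjusted p = 0.0121) were called, where 48.9% of tested genes were. Leaving out a replicate of every day brought these to adjusted p of up to 0.0612 and 0.127.

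Of 2 genes known to be activated by AP3 and PI, SUP was low at day 0, so its rise at day 1 is a description, as given above. NAP rose later. NAP, a NAC factor gene, was at 1.84 ± 0.541 CPM at day 0, 1.26 ± 0.199 CPM at day 1, 3.06 ± 0.715 CPM at day 3, 9.37 ± 3.93 CPM at day 4 and 13.6 ± 8.40 CPM at day 5. It was called higher at day 4 (2.35, SE 0.38, adjusted p = 4.12e-05) and day 5 (2.89, SE 0.38, adjusted p = 1.91e-06). In these comparisons 17.8% and 24.3% of all tested genes were called higher. From day 3 to day 4 NAP rose by 1.61 (adjusted p = 0.0218 by edgeR), where 1.45% of tested genes were called in either direction. That call ended without any 1 of 5 libraries and without the samples with high tapetum sums. It also ended in batch 1 alone and when only those days were fitted. AP3 and PI were not called between days 3 and 4.

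Of 10 genes that AP3 and PI are known to repress in flowers, 7 passed edgeR's filter on low counts, HEC1 and HEC2 did not and BNQ3 was not analysed here. At day 1 none of the 7 was called by edgeR, with 3 at unadjusted p below 0.05, and DESeq2 called GNC lower. Of all tested genes, edgeR called only 4.21% higher and 5.85% lower at day 1, so none of 7 is near that share. GNC and GNL, GATA factors that promote chlorophyll genes, fell. GNC went from 7.76 ± 2.93 CPM at day 0 to 2.65 ± 0.561 CPM at day 3 (-1.55, SE 0.21, adjusted p = 6.58e-06) and GNL from 1.55 ± 0.730 to 0.431 ± 0.158 CPM (-1.84, SE 0.40, adjusted p = 0.00132). At day 5 GNC was still 0.74 lower (adjusted p = 0.00443, and 0.0598 in batch 1 alone) at 4.64 ± 0.505 CPM. Day 0 replicate 3 held 12.04 CPM of GNC and the other day 0 samples 5.76 to 7.24 CPM. Without that library the day 5 difference was -0.45 (adjusted p = 0.0402), and without replicate 3 of every day it was -0.38 (adjusted p = 0.0824). GNL, at 1.06 ± 0.540 CPM at day 5, was not called. The carpel gene SPT fell by 0.34 at day 3 and 0.62 at day 5 (SE 0.09 each).

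The other members of that list rose. CRC, a YABBY gene of carpels and nectaries, went from 3.89 ± 1.12 CPM at day 0 to 40.6 ± 4.33 CPM at day 5 (3.38, SE 0.41, adjusted p = 6.26e-07), ALC from 50.3 ± 5.15 to 83.1 ± 18.4 CPM (0.72, SE 0.12), BNQ1 from 1.72 ± 0.188 to 5.11 ± 0.549 CPM (1.57, SE 0.17) and BNQ2 from 2.75 ± 0.296 to 6.17 ± 0.908 CPM (1.16, SE 0.22). At day 5 the list stood at 4 higher and 2 lower of 7 tested by edgeR, where 24.3% and 22.9% of all tested genes were called. HEC1 (0.132 ± 0.0902 CPM at day 0, 0.518 ± 0.140 CPM at day 5) and HEC2 (0.0288 ± 0.0192 and 0.490 ± 0.155 CPM) were too low for the edgeR fit. DESeq2 called both higher at day 5, from 14 and 3 counts in all at day 0, so their changes are a description.

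Of 8 genes of petal and stamen development, 5 passed edgeR's filter and MYB24 was not analysed here. MYB21 and MYB57 did not pass it, with day means of at most 0.0753 and 0.0444 CPM, and DESeq2 called neither in any comparison with day 0 or between neighbouring days. A gene can pass that filter through the days when it is high, so no count over these genes is given. RBE, a zinc finger gene of petal primordia, was at 0.0572 ± 0.0226 CPM at day 0, 0.570 ± 0.162 at day 1, 2.39 ± 0.288 at day 2, 3.23 ± 0.170 at day 3, 3.27 ± 0.763 at day 4 and 2.28 ± 0.404 CPM at day 5. It was 3.22 higher at day 1 (SE 0.35) and 2.05 higher at day 2 than at day 1 (SE 0.21, adjusted p = 3.27e-06), then not called at the later steps. RBE held 6 counts in all at day 0 and passed the filter only through later days, so its change from day 0 is a description. BPE, which limits petal size, rose by 0.37 at day 1 (adjusted p = 0.0229), a call that ended without any 1 of day 0 replicates 2 and 3 and day 1 replicates 1 and 4.

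SPL/NZZ, needed for sporocytes, went from 0.123 ± 0.0822 CPM at day 0 to 1.30 ± 1.15 CPM at day 3 (3.34, SE 0.77) and 2.46 ± 0.666 CPM at day 5. It held 13 counts in all at day 0 and passed the filter only through later days, so its changes from day 0 are a description. Day 3 replicate 4, the sample with the highest tapetum sum, held 2.93 CPM of SPL/NZZ and the other day 3 samples 0.354 to 1.27 CPM. The day 3 change was 2.56 without that library and also without all 4 samples with high tapetum sums. The petal gene PTL was 0.67 higher at day 4 (SE 0.11, adjusted p = 5.08e-05). DAD1, a lipase of jasmonate synthesis in stamens, was at 0.0374 ± 0.0748 CPM at day 0 and 0.983 ± 0.275 CPM at day 5. Its 4 samples of day 5 are the ones that let it pass the filter, so its values are a description.

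The B-sister MADS genes are the closest relatives of AP3 and PI outside the B class. AGL63 was between 1.49 ± 0.362 CPM at day 1 and 2.24 ± 0.347 CPM at day 3 and was not called over the 6 days (adjusted p = 0.0542). TT16, a gene of ovules and the seed coat, was too low for the edgeR fit, with 0.00935 ± 0.0187 CPM at day 0 and 0.273 ± 0.115 CPM at day 5. It held 1 count in all at day 0 and 29 at day 5. DESeq2 called it higher than day 0 from day 2 onward, but at counts this low its changes are a description.

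**Figure D4:**
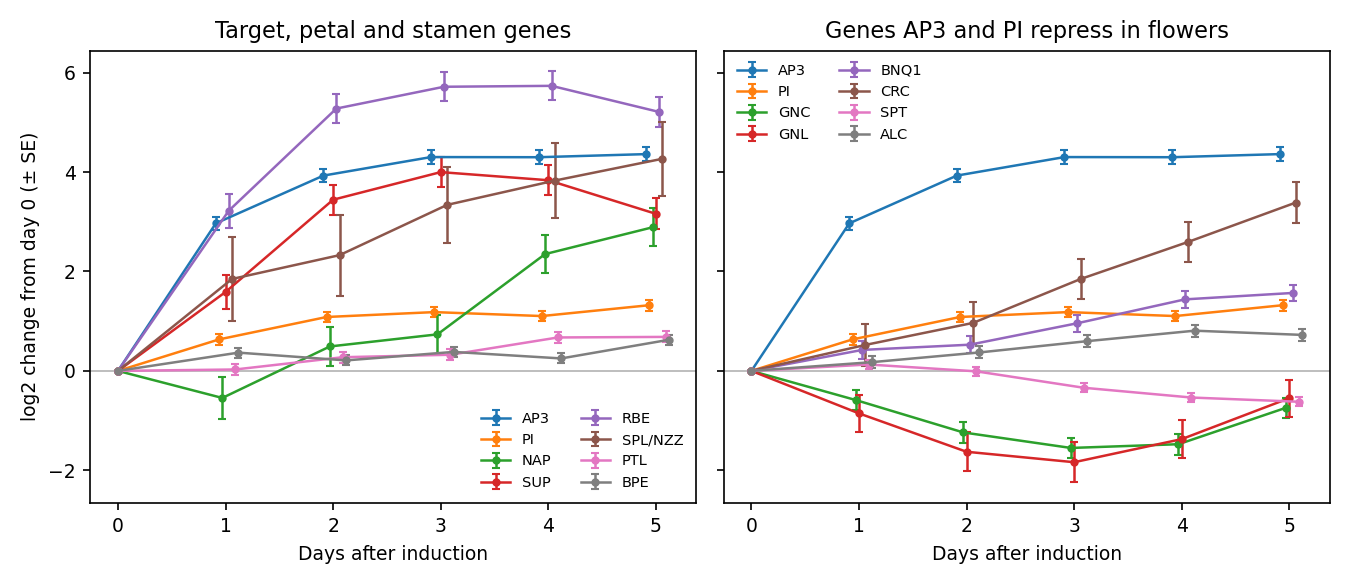
Log2 change from day 0 (± SE) by day after induction for AP3 and PI beside activated targets with petal and stamen genes (left) and beside genes they are known to repress (right), fitted over 4 samples per day. RBE is 3.22 and SUP 1.59 above day 0 at day 1, NAP 2.35 at day 4, and GNC and GNL are lowest at day 3 with -1.55 and -1.84.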

How the data were processed

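Whole inflorescence polyA RNA was sequenced in 48 runs from 24 samples. Expected counts, whole numbers for each gene and run, are the unit of the table the authors deposited. FastQC, Trim Galore, Salmon 0.12.0, DESeq2 and TAIR10 are named, per the submitters' processing notes; the tool that made the counts is not given in the sources.

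Runs were summed per sample. Runs of a sample had a chi-square per degree of freedom of 1.05 to 1.22 (24 pairs), against 3.51 to 59.8 between replicates of a day (36 pairs). Depth per run was 4.50 to 10.84 M in batch 1 and 16.74 to 22.61 M in batch 2 (M, 1e6 counts). Counts were fitted with edgeR 4.0.16 (R 4.3.3; TMM, filterByExpr by day with minimum count 10 and minimum total 15, quasi-likelihood test, 1 coefficient per day fitted to 24 samples together, leaving 18 residual degrees of freedom), with Benjamini-Hochberg adjustment over 19747 genes and calls at 0.05. CPM use TMM library sizes. SE is the log2 change over the square root of F. Ratios add 0.5 to each count and were tested with exact permutations, with the adjustment from scipy 1.17.1. Correlations use log2 CPM with a prior count of 2. The fit was tested on simulated data.

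Symbols, coordinates, lengths and sequences come from RefSeq's TAIR10.1, where 22915 identifiers matched. The members and the gene lists were chosen with earlier results of these data known. Any list member could be named, first those with the smallest p, those against their list and those too low to test, with the 5 genes most like each of AP3 and PI. Alternatives were RLE size factors, library totals, no filter, DESeq2 1.42.0, a replicate block, either batch alone, only the days compared, and leaving out replicates, libraries or, chosen after seeing the data, the 4 samples with high tapetum sums.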

Additional observations from a re-analysis of the deposited data

Results flagged for a closer look

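AP3 in day 4 replicate 2 stood apart from the other samples of its day. Its level was 185.72 CPM, and the other 3 samples lay between 165.21 and 168.46 CPM. The gap to the nearest sample was 0.842 of the whole range of that day, above Dixon's 95% critical value for 4 samples. It was 1 of 18 groups looked at (AP3, PI and their ratio on each day), and chance flags about 1 in 20. PI was also highest in that sample on that day, at 145 CPM. Its tapetum sum was 24.2 CPM, inside the range of 20.9 to 31.7 CPM of that day.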

How the results depend on the processing

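For AP3 and for PI, 351 values were computed under the alternatives, of which 326 and 334 kept their direction and their side of the threshold. All 135 values of the ratio kept their direction, and those with a test kept their side of the threshold. Leaving out a replicate or the high tapetum samples, and the replicate block, gave the ratio values with no test. Each of these lay within the pooled SD of the days compared from the main value. Without the 4 samples with high tapetum sums, AP3 between days 4 and 2 was 0.36 and PI between days 2 and 1 was 0.44, both no longer called. Leaving out replicates or libraries gave 0.33 to 0.40 for AP3 between days 4 and 2, 0.40 to 0.51 for PI between days 2 and 1, and 0.40 to 0.54 for PI between days 4 and 1; some calls were lost in each. Changes of sign occurred only in differences near 0 that were not called. For AP3 between days 4 and 3, the value was 0.0017 with RLE size factors, 0.0015 with the replicate block, 0.0088 in batch 1 only, 0.0018 with DESeq2, 0.0551 without the high tapetum samples, and -0.0837 to 0.0734 when leaving out replicates or libraries. For PI between days 4 and 3 it was 0.0153 without the high tapetum samples and -0.1884 to 0.0326 when leaving out replicates or libraries. The same omissions gave -0.0438 to 0.1346 for AP3 between days 5 and 3 and -0.0329 to 0.0673 for PI between days 4 and 2. The causes were not tested. Deviations from the day means gave r of -0.312 to 0.604 (median 0.046) over 60 pairs with the same replicate number on different days. Over 180 pairs with different numbers r was -0.504 to 0.508 (median -0.009). Of 24 samples, 10 correlated best with a sample of their own number. Whether samples of the same number share a deviation was not tested. With the replicate block, PI between days 5 and 2 was 0.24 with adjusted p = 0.0492, now past the threshold, and no other call of AP3 or PI changed. Of 4546 values for called list members, 414 lost the call and none changed sign. Depth limits the lowest genes (RBE, SUP, SPL/NZZ and DAD1 at day 0) and not AP3, whose lowest sample held 161 counts.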

Other observations

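Without day 0, the genes most like AP3 over the 20 samples of days 1 to 5 were FOP1 (Pearson r 0.973), ENDO3 (0.972), AG (0.967), REM22 (0.966) and ABI5 (0.961). Those most like PI were AG (0.94), AP3 (0.886), ENDO3 (0.885), GID1B (0.878), a gibberellin receptor gene, and REM22 (0.870). PI was 40th of 6753 genes for AP3 in these samples, while AP3 was 2nd for PI. The correlations are descriptions over samples that share a time course.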
